A study of Mus musculus with 24 samples.

Results

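SMARCC1 binding was compared between a Kmt2d wild-type (WT) and a Kmt2d mutant mouse melanoma cell line, with 1 CUT&RUN library per line. The members were all peaks in the 2 deposited SMARCC1 peak lists, 11507 from WT line 971 and 2910 from mutant line 493. Together they made 14417 of the 197727 peaks in the 22 lists of the series. A peak was called shared when it overlapped a peak of the other line's list by at least 1 bp, and otherwise WT-only or mutant-only. The 22 lists came from 24 libraries, and the 2 IgG control libraries were not analysed here. Both lines are labelled as mouse melanoma cells grown in the same serum-containing medium, and both SMARCC1 libraries were made with the same antibody and the same EpiCypher CUT&RUN kit. The labels do not give the Kmt2d allele of line 493, the origin of either line or any other genotype, treatment or passage. Each genotype is therefore 1 line, so that KMT2D status cannot be told apart from any other difference between the lines. With 1 library per line no difference could be tested across replicates. The intervals of shares given below are 95% Wilson intervals, and those of differences are 95% intervals from standard errors. All of them cover counting error only.

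SMARCC1, also called BAF155, is a core scaffold subunit of the SWI/SNF chromatin remodelling complexes, which use ATP to slide or evict nucleosomes. It is present in the canonical BAF complexes that contain ARID1A, in the polybromo complexes that contain ARID2 and PBRM1, and in the non-canonical complexes that contain BRD9. KMT2D is the methyltransferase that places monomethyl marks on lysine 4 of histone H3 at enhancers, where it acts in a complex with the demethylase UTX. Enhancers that hold BAF commonly hold AP-1, the dimer of FOS and JUN proteins, and in pigment cells they can also hold SOX10 and TFAP2A.

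The melanoma label was checked with melanocyte markers, by H3K4me3, the mark of active promoters, within 1 kb of gene ends. Of 8 melanocyte markers, 2 had the mark in the WT line (Mitf and Pmel) and 3 in the mutant line (Mitf, Pmel and Sox10). Tyr, Tyrp1, Dct, Mlana and Gpr143 had none in either line. Fibroblast markers had it at 4 of 8 genes in each line (Col1a1, Col3a1, Pdgfra and Pdgfrb), keratinocyte markers at 1 of 5 (Krt10), endothelial markers at 1 of 3 (Kdr) and blood cell markers at 0 of 4. The marked genes were the same in both lines except for Sox10. The share of all genes with the mark at a gene end is not given here, so these counts do not settle the cell type.

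The sequences shown first are promoters in which a SMARCC1 summit fell in the 250 bases before a gene start, and the motif content of such windows is given after them. For shared, WT-only and mutant-only peaks the 2 windows with the most fragments are shown. Adgrg1 and Mmp1b were added because they hold AP-1 matches. Of the 15 windows with the most fragments, 5 in each class, 6 held an AP-1 match. Distal peaks, which made up most of both lists, are given by position only. The windows are from RefSeq, build GRCm38.p6, printed 5′ to 3′ on the strand of the gene. Capitals mark matches to the AP-1 motif TGANTCA or to the TFAP2 motif GCCNNNGGC, both of which read the same on either strand. Fgd4 (chr16:16560220-16560469, minus strand), which encodes an activator of the GTPase CDC42, had 14 fragments at the summit in WT cells and 5 in mutant cells. Acyp1 (chr12:85280436-85280685, minus strand), an acylphosphatase, had 20 and 3 and held neither motif. Gstm7 (chr3:107931818-107932067, minus strand), a glutathione transferase, had 20 fragments in the WT line and no mutant peak, and Clcn3 (chr8:60954800-60955049, minus strand), a chloride and proton exchanger, had 19 and none. Neither held an AP-1 or TFAP2 match. Adgrg1 (chr8:94984149-94984398, plus strand), an adhesion receptor, had 17 fragments in the WT line and no mutant peak. Mmp1b (chr9:7388027-7388276, minus strand), a collagenase gene, had 12 and no mutant peak. Pcx (chr19:4510222-4510471, plus strand), the gene of pyruvate carboxylase, had 5 fragments in the mutant line and no WT peak, and held neither motif. Ufl1 (chr4:25281822-25282071, minus strand), a ligase for the ubiquitin-like modifier UFM1, had 4 fragments in the mutant line and no WT peak.
Acyp1: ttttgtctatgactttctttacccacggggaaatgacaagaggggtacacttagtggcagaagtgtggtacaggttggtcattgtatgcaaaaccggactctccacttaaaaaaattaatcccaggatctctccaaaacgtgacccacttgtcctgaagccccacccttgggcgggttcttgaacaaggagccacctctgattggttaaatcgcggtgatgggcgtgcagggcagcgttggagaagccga
Fgd4: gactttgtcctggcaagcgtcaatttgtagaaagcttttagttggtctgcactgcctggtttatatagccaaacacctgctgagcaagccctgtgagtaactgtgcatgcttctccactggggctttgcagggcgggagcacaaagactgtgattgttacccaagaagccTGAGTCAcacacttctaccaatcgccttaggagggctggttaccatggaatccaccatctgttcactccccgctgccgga
Gstm7: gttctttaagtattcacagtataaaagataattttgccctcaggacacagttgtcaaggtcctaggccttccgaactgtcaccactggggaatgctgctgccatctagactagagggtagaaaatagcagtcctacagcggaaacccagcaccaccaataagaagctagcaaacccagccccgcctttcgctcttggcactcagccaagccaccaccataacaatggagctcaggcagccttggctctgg
Clcn3: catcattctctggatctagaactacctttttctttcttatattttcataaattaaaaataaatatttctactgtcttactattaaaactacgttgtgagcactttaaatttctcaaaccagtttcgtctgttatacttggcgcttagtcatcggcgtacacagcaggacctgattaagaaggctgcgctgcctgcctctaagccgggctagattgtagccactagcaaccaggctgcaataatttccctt
Adgrg1: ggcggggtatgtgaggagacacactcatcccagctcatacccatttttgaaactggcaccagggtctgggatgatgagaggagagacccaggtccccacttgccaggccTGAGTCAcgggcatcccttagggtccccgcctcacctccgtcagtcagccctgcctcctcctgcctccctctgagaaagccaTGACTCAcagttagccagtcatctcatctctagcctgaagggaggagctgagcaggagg
Mmp1b: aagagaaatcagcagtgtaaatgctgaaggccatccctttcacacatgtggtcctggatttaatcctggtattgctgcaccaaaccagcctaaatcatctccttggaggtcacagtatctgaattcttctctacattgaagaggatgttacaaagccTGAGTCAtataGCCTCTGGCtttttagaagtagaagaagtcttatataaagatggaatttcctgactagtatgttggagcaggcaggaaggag
Pcx: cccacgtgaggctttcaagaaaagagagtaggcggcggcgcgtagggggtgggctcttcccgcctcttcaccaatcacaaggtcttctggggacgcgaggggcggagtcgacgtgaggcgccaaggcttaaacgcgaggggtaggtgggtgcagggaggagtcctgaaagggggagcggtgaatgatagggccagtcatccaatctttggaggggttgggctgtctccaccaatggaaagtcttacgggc
Ufl1: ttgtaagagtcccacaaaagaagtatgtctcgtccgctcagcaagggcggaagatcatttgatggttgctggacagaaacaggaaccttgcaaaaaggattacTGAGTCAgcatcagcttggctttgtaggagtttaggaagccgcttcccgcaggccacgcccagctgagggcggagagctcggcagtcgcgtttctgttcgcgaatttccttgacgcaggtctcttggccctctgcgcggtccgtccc

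The AP-1 motif was found in 35 of 106 promoter windows with a WT SMARCC1 summit (33.0%, interval 24.8 to 42.4%), against 6.14% of all 21238 windows of this length. The 106 windows belonged to 101 genes. Among windows with a WT ARID1A summit the share was 9.63% of 1474. It was 4.59% of 1155 for KMT2D, 4.65% of 1851 for TFAP2A and 3.14% of 2136 for Menin, a subunit of other H3K4 methyltransferase complexes. By line, AP-1 matches were found in 7 of 11 windows of shared WT peaks, in 28 of 95 windows of WT-only peaks (29.5%) and in 4 of 19 windows of mutant-only peaks (21.1%). These counts are too small to order the 3 classes. The TFAP2 motif was in 19.8% of the WT SMARCC1 windows and 16.3% of all windows, the TEAD motif GGAATG in 13.2% and 11.7%, and the SOX motif ACAAAG in 12.3% and 14.9%. The interval of each of these 3 shares included the share of all windows. The NF-Y motif CCAAT was in 55.7% against 35.4%, and the SP and KLF motif GGGCGG in 54.7% against 42.6%. Both were also above all windows at ARID1A summits (53.3% and 74.2%). All motifs were searched on both strands, and the windows were not matched for base composition.

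**Figure D1:**
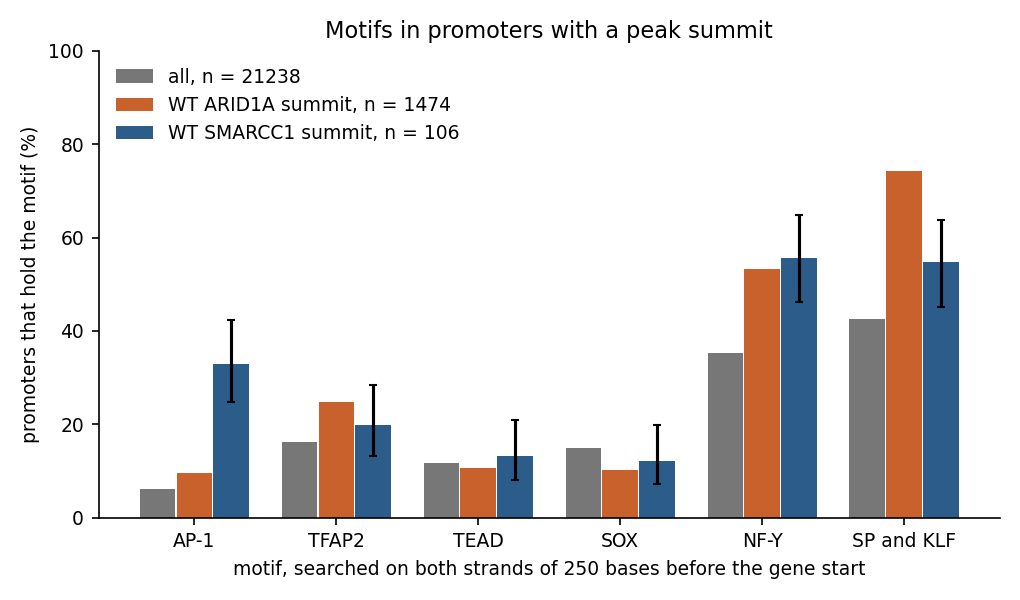
Share of promoter windows that hold each motif (y axis, percent) for all 21238 windows, the 1474 with a WT ARID1A summit and the 106 with a WT SMARCC1 summit. Black bars are 95% Wilson intervals of the SMARCC1 shares; AP-1 is at 33.0% in SMARCC1 windows and at 6.14% in all windows.

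The 2 lists differed in number, strength and width, and the libraries differed in depth. The WT list covered 4728 kb and the mutant list 769 kb. The authors' fold enrichment over local background had a median of 8.01 in the WT list (quartiles 5.37 and 11.6) and 4.22 in the mutant list (2.90 and 5.80). From the fold and the p-value of a peak, the number of fragments at its summit could be recovered as a whole number for 11506 of 11507 WT and 2909 of 2910 mutant peaks. The median was 8 fragments in the WT list (quartiles 6 and 13) against 4 in the mutant list (2 and 5). No WT peak rested on fewer than 3 fragments, whereas 786 mutant peaks (27.0%) rested on 2. From the background of each list, the caller worked with about 1030000 fragments in the WT library and 405000 in the mutant library, a ratio of 0.394. This ratio takes the shortest peak of each list as the fragment length of the caller, and the backgrounds alone had a ratio of 0.300. Counts set against depth use 0.394 unless stated. The ratio of peak numbers was 0.253. When the fragments and background of every WT peak were scaled by 0.394 and the mutant list's lowest −log10 p was applied, 7647 WT peaks remained, and the ratio of peak numbers rose to 0.381. With 0.300 in its place, 6403 WT peaks remained and the ratio was 0.454.

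Of the 11507 WT peaks, 1942 (16.9%, interval 16.2 to 17.6%) were shared with the mutant list and 9565 (83.1%) were WT-only. Of the 2910 mutant peaks, 1958 (67.3%, interval 65.6 to 69.0%) were shared and 952 (32.7%) were mutant-only. The share of mutant peaks that were shared was 38.5% with a reciprocal overlap of 50% and 39.2% between equal numbers of top peaks. Among the 7647 WT peaks left after scaling to the mutant depth, 22.6% were shared, and among the 6403 left with the ratio of 0.300, 25.004%.

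The share of WT peaks kept in the mutant line rose with WT strength. It was 3.23% of the 2852 peaks with 3 to 5 fragments, 9.50% with 6 to 9, 17.3% with 10 to 14 and 29.6% with 15 to 19. It was 48.5% of the 876 peaks with 20 to 29 fragments, 67.2% of the 253 with 30 to 39, and 87.6% of the 129 with 40 to 92. Peaks of 20 or more fragments, called strong below, numbered 1258, of which 708 (56.3%, interval 53.5 to 59.0%) were shared and 550 were WT-only. In the class of 40 to 92 fragments the median was 47 fragments in the WT list against 9 in the mutant list, where the depth ratio alone would give 18.5. Summed over that class, the mutant fragments were 0.455 of the number that depth alone would give, with an unlisted site counted as 0, and 0.598 with the ratio of 0.300. Choosing sites by their WT count favours the WT line, so the same ratio was taken for other choices of sites.

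**Figure D2:**
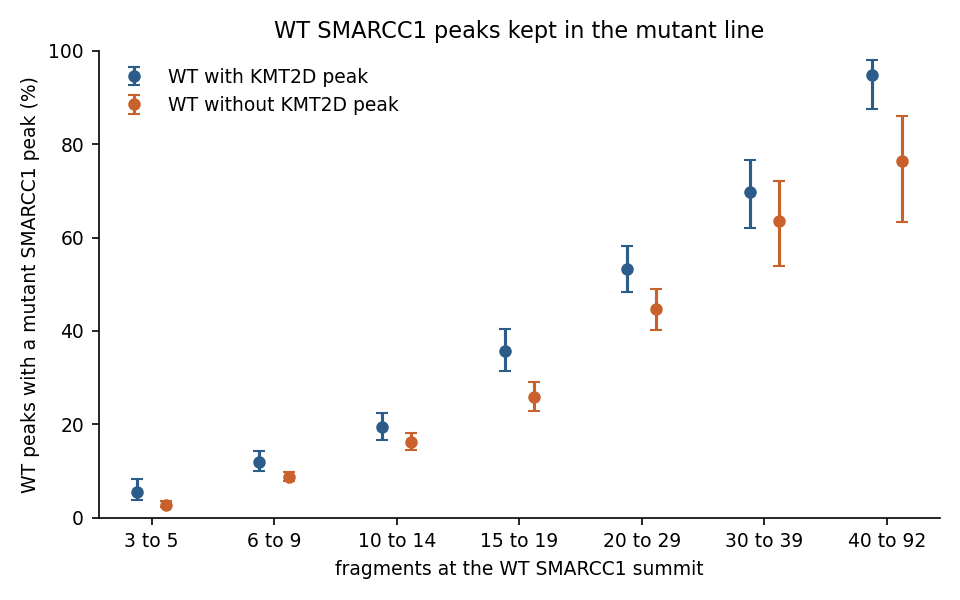
Share of WT SMARCC1 peaks that overlap a mutant SMARCC1 peak (y axis, percent) by fragments at the WT summit (x axis), for WT peaks with and without a WT KMT2D peak. Points are shares and bars 95% Wilson intervals; the share rises with strength in both series, from under 6% to 94.9% with KMT2D and 76.5% without.

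Seen from the mutant list, sharing also rose with strength. It was 35.5% of the 786 mutant peaks with 2 fragments, 64.4% of 643 with 3, 80.3% of 829 with 4 or 5, 91.1% of 493 with 6 to 9, and 137 of 137 with 10 to 28. Peaks on a local background of 5 or more fragments were left out of these classes. With them, 150 of 159 mutant peaks of 10 or more fragments were shared. In the class of 10 to 28 the median was 12 mutant and 37 WT fragments. The summed mutant count was 1.24 of what the depth ratio would give at 2 fragments, 0.891 at 3, 0.820 at 4 or 5, 0.823 at 6 to 9 and 0.819 at 10 to 28. Against the ratio of backgrounds alone, the same 5 values were 1.63, 1.17, 1.08, 1.08 and 1.08. For sites chosen on the mutant side the direction thus turned with the estimate of depth at 3 or more fragments. At 2 fragments the mutant count was the higher with both estimates, but the median WT count there was 0. An unlisted WT site was counted as 0, and choosing sites on the mutant list favours the mutant line.

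A choice that used neither SMARCC1 list was the strength of ARID1A, the defining subunit of canonical BAF, at 15732 sites called for ARID1A in both lines. At the 250 strongest of these sites, ARID1A had a median fold of 43.4 in WT cells and 59.1 in mutant cells. SMARCC1 was called at 250 of 250 of them in WT cells and at 213 (85.2%, interval 80.3 to 89.1%) in mutant cells. WT SMARCC1 counts ran from 7 to 92 fragments with a median of 28, and mutant counts from 0, where no peak was listed, to 28 with a median of 6. The mutant count lay under the WT count multiplied by the depth ratio of 0.394 at 231 of the 250 sites. The summed mutant count was 0.527 of what depth alone would give, and 0.586 over the 213 sites listed in both. With the ratio of 0.300 these values were 0.693 and 0.771, and 194 sites lay under it. At ARID1A ranks 1001 to 2000 SMARCC1 was called at 90.1% of sites in WT cells and 34.9% in mutant cells. At the 250 strongest sites the summed SMARCC1 count was thus lower in mutant cells by more than either depth ratio. The ARID1A fold was not set against the depth of the ARID1A libraries, so its higher median in mutant cells is not corrected for depth. The whole mutant SMARCC1 list also had the lower median fold given above, and the part of library quality in this difference was not tested.

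Mutant peaks were narrower. The median width was 361 bp in the WT list (quartiles 280 and 494) against 231 bp in the mutant list (190 and 306). At the 1927 sites where 1 WT peak met 1 mutant peak, the median was 470 bp in WT cells and 252 bp in mutant cells. The mutant peak was the narrower at 91.5% of these sites, with a median ratio of 0.587. The summits lay a median of 49 bp apart. Width grew with the number of fragments in both lists, from 288 bp at 3 to 5 fragments to 403 bp at 10 to 14 in the WT list, and over the same classes from 241 to 306 bp in the mutant list. The shortest peak, taken as the fragment length the caller used, was 213 bp in the WT list against 162 bp in the mutant list. After subtracting it, the medians at 3 to 5 fragments were 75 and 79 bp, and at 10 to 14 fragments 190 and 144 bp.

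Both lists lay mostly away from gene ends. Peaks more than 5 kb from either end of any protein-coding gene, called distal, made up 84.9% of the WT list (interval 84.2 to 85.6%) and 84.6% of the mutant list (83.2 to 85.8%). Peaks within 1 kb of a gene end made up 4.77% and 4.10%. The summit lay inside a gene for 48.6% of WT and 45.8% of mutant peaks, and 41.2% and 37.9% were both distal and inside a gene. The ARID1A lists were less distal, with 74.6% in WT cells and 71.4% in mutant cells, and had more peaks at gene ends, 3110 of 22191 in WT cells and 16.8% in mutant cells. Of the gene-end peaks 10.6% of 548 were kept (interval 8.28 to 13.4%), and of the distal peaks 17.1% of 9763 (16.4 to 17.9%). The gene-end peaks had a median of 6 fragments and the distal peaks 9. Among strong peaks 10 of 23 gene-end peaks and 56.2% of 1120 distal peaks were kept, and the interval of the first (25.6 to 63.2%) included the second. Mutant-only peaks were at gene ends in 6.65% (interval 5.23 to 8.41%) and shared mutant peaks in 2.87%. Among mutant-only peaks of 4 or more fragments the share was 3.86% of 207.

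WT peaks were grouped more than mutant peaks in the lists as deposited. With neighbours up to 10 kb apart joined, 28.2% of WT peaks lay in clusters of 2 or more, and 267 clusters held 3 or more. In the mutant list the share was 10.7% with 16 such clusters. In the 7647 WT peaks left after scaling to the mutant depth, it was 20.6%. In the 2910 WT peaks with the highest −log10 p, as many as the mutant list holds, it was 8.45%. These strongest WT peaks were thus not more clustered than the mutant list, and the part of peak number in the difference was not tested. Single and clustered peaks had similar kept shares at equal strength. Among WT peaks with 20 to 92 fragments, 55.8% of single peaks, 56.6% of peaks in pairs and 60.2% of peaks in larger clusters were kept, with overlapping intervals. Of the 267 clusters of 3 or more, 101 had at least 1 kept peak and 3 kept every peak.

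The clusters with the most WT peaks mostly lay in single genes. In Cubn, which encodes the endocytic receptor cubilin, 7 WT peaks of 4 to 19 fragments lay within 21.1 kb (chr2:13396161-13417220), of which 3 were kept. ARID1A had 7 peaks there in WT cells and 6 in mutant cells. In Niban1, a stress-induced gene, 7 peaks lay within 17.4 kb (chr1:151675777-151693179) and 1 was kept, with 8 and 6 ARID1A peaks. In Vmp1, an endoplasmic reticulum protein needed for autophagy, 6 peaks of 5 to 18 fragments lay within 25.2 kb (chr11:86577318-86602517) and 0 were kept, while ARID1A had 7 peaks in WT cells and 10 in mutant cells. A cluster at Ampd3 and Rnf141 (chr7:110780555-110801227) had 6 WT peaks and 1 kept. Clusters of 5 WT peaks in Psd3, Aknad1, Pvr and Susd6 kept 0, those near Aldoart1 and in Fbxl13 kept 1, and those in Rbks, Adamts14 and Anxa2 kept 2. In mutant cells each of these clusters held 2 to 10 ARID1A peaks and 0 to 3 SMARCC1 peaks.

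Most of the strongest shared sites lay far from gene ends. The highest WT peak was inside Sugct (chr13:17511034-17512053), an enzyme of glutarate metabolism, with 92 fragments in WT cells and 14 in mutant cells. A site nearest Adamts5 (chr16:86347632-86348571), a matrix protease gene 446507 bp away, had 87 and 15. A site 74542 bp from Tpcn2, a lysosomal cation channel gene, had 78 and 16 (chr7:145106145-145107091). One in Prtg, an immunoglobulin superfamily receptor, had 76 and 20 (chr9:72845937-72846675). Trpm6 (chr19:18890174-18890747), a magnesium channel gene, had 73 and 28, the highest mutant count of the shared sites named here. A site nearest Dusp4, a phosphatase of MAP kinases, had 65 and 20 (chr8:34523830-34524565), and a site nearest Nr2f1, a nuclear receptor of neural crest cells, had 63 and 20 (chr13:78809624-78810192). A site nearest Olfr16, an olfactory receptor gene, had the lowest mutant count of the 10, with 81 and 4 (chr1:172960589-172961230). Trpm6 was close to the count that depth alone would give and the others named here were further below it. Against the ratio of 0.300, Trpm6, Dusp4 and Nr2f1 were above it.

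Of the 10 shared sites with the highest mutant fold, 4 were among those above (Trpm6, Nr2f1, Dusp4 and Prtg). Positions of the others are those of the mutant peak. Near 1700016C15Rik the counts were 60 fragments in WT cells and 25 in mutant cells (chr1:177708828-177709038), and near Ptk2, the gene of focal adhesion kinase, 60 and 22 (chr15:73434914-73435276). In Msmo1, an enzyme of cholesterol synthesis, they were 33 and 19 (chr8:64726272-64726715). Lrrc8d, a subunit of volume-regulated anion channels, had 51 and 19, Anks1b 60 and 18, and Nr1h4, the bile acid receptor, 50 and 20. The mutant count was above the count that depth alone would give at 1700016C15Rik, Msmo1 and Nr1h4, sites that were chosen for a high mutant fold, and against the ratio of 0.300 it was above at 9 of the 10. ARID1A was called in both lines at every shared site named here.

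Some strong WT sites had no mutant peak. The highest were near Arsi with 57 fragments and in Dbi, an acyl-CoA binding protein, with 50 (chr1:120136233-120136964). A site nearest Prkd1, the gene of protein kinase D1, also had 50 (chr12:49967953-49968827), but a mutant peak lay 913 bp away. A site in Creb1, the cAMP response factor, had 48 (chr1:64601103-64601919). Sites nearest Adgrl4, Ghr and Ttll7 had 44, 41 and 41, and those nearest Reep3, Fbxo4 and Tsc22d2 had 42, 39 and 39. Choosing these 10 sites by a high WT fold and the lack of a mutant peak favours the WT line. The part of depth and library quality in the missing calls was not tested. ARID1A was called in both lines at all 10, and KMT2D in the WT line at 3 of them (Arsi, Adgrl4 and Fbxo4). Of the 550 strong WT-only peaks, 7 lay within 2 kb of a mutant SMARCC1 peak, and the median distance to the nearest was 186 kb.

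Mutant-only sites were weaker, apart from 9 with 20 or more fragments. Those 9 all lay on a local background of 5 or more fragments and are not named. By fold, the highest mutant-only site was in Tmem19 with 9 fragments (chr10:115354669-115354839). One nearest Cdkn2b, an inhibitor of cyclin-dependent kinases, also had 9 (chr4:89478850-89479057), and had no ARID1A in the WT line. Peaks in Ppp1r14c, Slc13a3 and Ank2 and nearest Slc35b3 and Egr2, a transcription factor gene of Schwann cells, had 8 each. Those in Dst and nearest Otogl and Slc22a23 had 7. Those of Ppp1r14c, Slc35b3 and Otogl lay 1128, 651 and 931 bp from a WT peak. All 10 had ARID1A in the mutant line and 7 had it in the WT line. Of the 952 mutant-only peaks, 507 rested on 2 fragments, and only 37.7% of these overlapped mutant ARID1A, against 94.6% of the shared mutant peaks with 2 fragments. Among mutant-only peaks with 4 or more fragments the share with mutant ARID1A was 94.7% of 207, and 67.6% had WT ARID1A.

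Shared and WT-only sites differed in the other proteins found at them. Among strong WT peaks, ARID1A in the WT line was called at 707 of 708 shared and 546 of 550 WT-only peaks. ARID1A in the mutant line was called at 708 of 708 shared and 514 of 550 WT-only peaks (93.5%, interval 91.1 to 95.2%). Its median fold in the mutant line was 37.9 at the shared peaks and 22.8 at the WT-only peaks, against 30.4 and 24.1 in the WT line. KMT2D was called at 54.7% of the shared (interval 51.0 to 58.3%) and 42.2% of the WT-only peaks (38.1 to 46.3%). UTX in the WT line was called at 76.4% and 68.0%, and UTX in the mutant line at 72.5% and 47.1%. TFAP2A in the WT line was called at 47.3% and 34.0%, and in the mutant line at 64.1% and 38.4%. SOX10, profiled with 2 antibodies in the mutant line, was called by the more productive one at 41.8% and 23.8%. The intervals of the 2 classes did not overlap for any of these libraries except ARID1A in the WT line. Menin in the WT line (11.0% and 10.2%) and H3K4me3 in the WT line (3.95% and 3.09%) had overlapping intervals. In the mutant line Menin (11.7% and 7.27%) and H3K4me3 (3.11% and 1.27%) had overlapping intervals as well. Over all WT peaks, however, mutant Menin was called at 14.1% of shared (interval 12.6 to 15.7%) and 8.72% of WT-only peaks (8.17 to 9.30%). The ARID2, PBRM1 and BRD9 lists met at most 33 of the 708 shared and 19 of the 550 WT-only peaks.

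**Figure D3:**
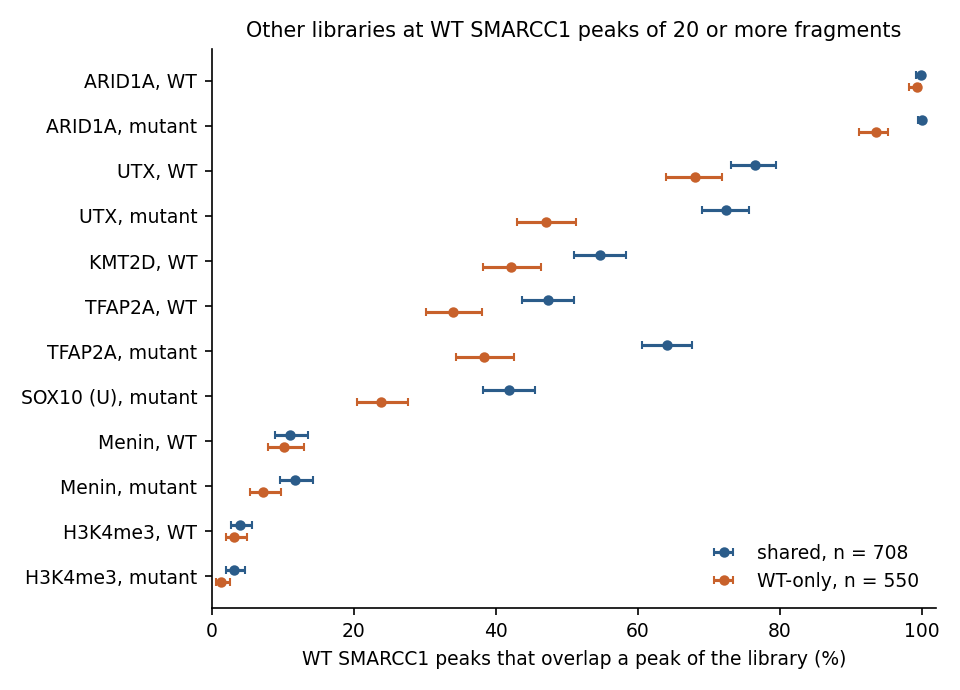
Share of WT SMARCC1 peaks with 20 or more fragments that overlap a peak of each other library (x axis, percent), for the 708 shared and 550 WT-only peaks. Bars are 95% Wilson intervals; the mutant UTX, TFAP2A and SOX10 lists show the widest gaps between shared and WT-only peaks.

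KMT2D in the WT line went with a higher kept share at like SMARCC1 strength. Over all WT peaks, 26.6% of the 3083 with KMT2D and 13.3% of the 8424 without were kept. With both groups weighted alike over 10 classes of WT fold, the shares were 20.2% and 15.3%, a difference of 4.89 percentage points (interval 3.39 to 6.39). The difference was 5.12 points for WT UTX and 5.20 points for WT TFAP2A, so that it was of like size for all 3. For the other libraries of the WT line it was 1.67 points for Menin (interval −0.37 to 3.70) and 3.58 for H3K4me3 (0.51 to 6.65). For WT ARID1A it was 11.2 points (7.57 to 14.9), but the smallest group in a fold class held 2 peaks, against 165 for KMT2D. For the libraries of the mutant line for which it was taken, it was 12.6 points for TFAP2A, 14.6 for SOX10, 15.7 for UTX and 19.1 for ARID1A. These libraries and the mutant SMARCC1 library come from the same cells, and the WT ones from the same cells as the WT strength used for the classes.

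A larger share of WT peaks was kept in the mutant line for ARID1A than for SMARCC1. Of 22199 WT ARID1A peaks, 70.9% (interval 70.3 to 71.5%) were shared with the mutant list of 25385 peaks, against 16.9% for SMARCC1. Seen from the mutant lists, 62.5% of ARID1A peaks and 67.3% of SMARCC1 peaks were shared with the WT line. These shares were not corrected for the depth of the ARID1A libraries. At WT-only SMARCC1 peaks that had WT ARID1A, mutant ARID1A was called at 77.1% of 8220, and at shared SMARCC1 peaks at 99.3% of 1896. Of the mutant ARID1A peaks 9.80% met one of the 2910 mutant SMARCC1 peaks. Of the WT ARID1A peaks 45.4% met one of the 11507 WT SMARCC1 peaks. Both shares depend on the number of SMARCC1 peaks in the list.

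In 36 of the 550 strong WT-only peaks mutant ARID1A was absent as well. By fold, the highest were in Gad2, a glutamate decarboxylase, with 32 WT fragments (chr2:22679762-22680488), nearest Sox13 with 31 (chr1:133487137-133487833), in Tcf12, an E-protein transcription factor, with 41 (chr9:72101131-72101534), and in Shpk with 28. All 36 except a site nearest Tnc had ARID1A in the WT line. The 36 sites were drawn up, and those named chosen, after their values were seen.

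By gene, 6185 of 21900 protein-coding genes (28.2%) had a WT SMARCC1 peak in the gene or within 20 kb of it, and 2195 (10.0%) had a mutant one. Both lists met 1775 genes, the WT list alone 4410 (20.1%) and the mutant list alone 420 (1.92%). After thinning to the mutant depth these were 2862 and 630, and at −log10 q of at least 5 they were 4310 and 99. The genes with the most WT peaks and no mutant peak were all longer than the median gene of 17.1 kb. Asap1, a regulator of Arf GTPases, had 10 WT peaks of 4 to 17 fragments, 9 of which overlapped mutant ARID1A. Vmp1 had 10 WT peaks of 5 to 30 fragments, and mutant ARID1A overlapped all 10. Kcnip1, a potassium channel partner, had 9 of 5 to 25 fragments, of which mutant ARID1A overlapped 2. Tbc1d1, a Rab GTPase regulator, had 9, of which 4 overlapped it. Nrg1, the ligand of ERBB3 and ERBB4, had 8 of 4 to 18 fragments and 3 with mutant ARID1A, and Rabgap1l had 8 and 1. Mast4, a kinase gene, had 7 and 6, Vps45 7 and 6, Cdh18 7 and 4, and Dnm3 7 and 3. Loss of the SMARCC1 call thus went with mutant ARID1A at Vmp1 and Asap1 and without it at most sites of Kcnip1 and Rabgap1l.

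Genes with mutant peaks and no WT peak had 1 or 2 weak peaks. Sertad1, Prx, Zdhhc20 and Nxn had 2 each, resting on 2 and 2, 2 and 2, 4 and 3, and 2 and 6 fragments. The 2 peaks of Sertad1 and of Prx, neighbouring genes, are the same 2 peaks. Among genes with peaks in both lists, picked after their values were seen, Sgms1, a sphingomyelin synthase, had 10 WT and 6 mutant peaks, and all 6 were shared. Cubn had 11 and 5, Elmo1, a regulator of cell migration, 8 and 5, and Sox5, a neural crest transcription factor, 11 and 4. Cav1, the gene of caveolin, had 3 WT peaks of 7, 51 and 25 fragments and 5 mutant peaks of 2, 2, 8, 2 and 3.

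**Figure D4:**
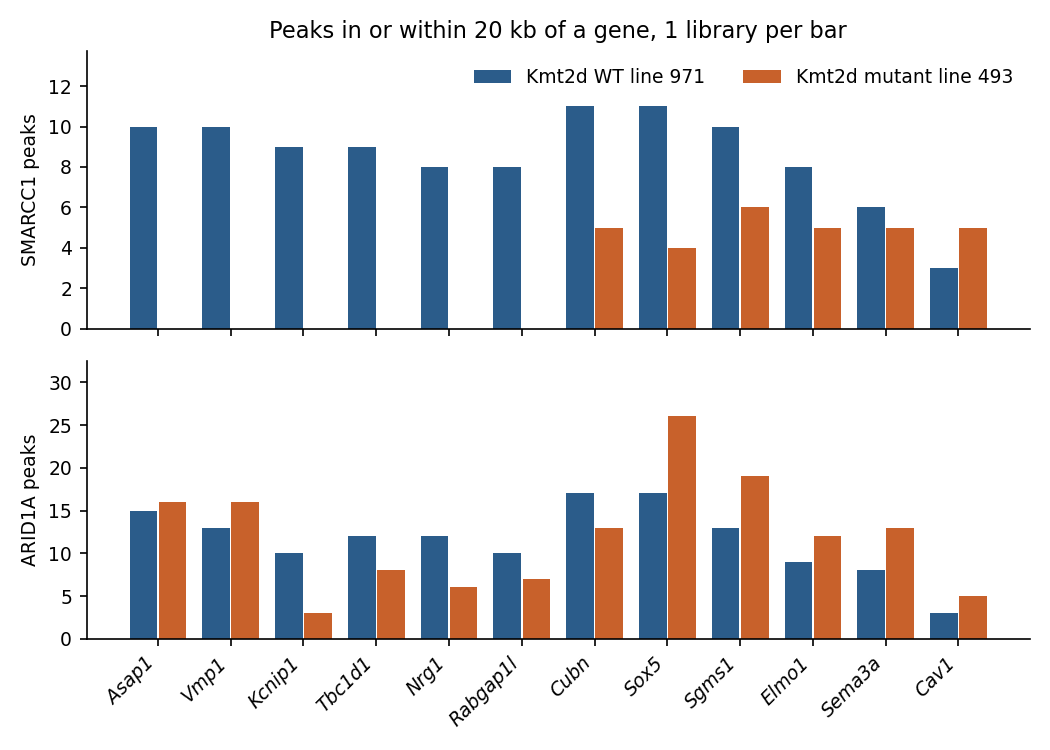
Number of SMARCC1 peaks (upper panel) and ARID1A peaks (lower panel) in or within 20 kb of each gene, for the WT and mutant lines, 1 library per bar. The left 6 genes have 8 to 10 WT SMARCC1 peaks and 0 in the mutant line, while ARID1A has 3 to 16 peaks there in the mutant line.

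The gene lists were read against the shares of all genes, 28.2% with WT and 10.0% with mutant SMARCC1. Most lists have a longer median gene than all genes, which gives their members more room for peaks. Of 20 genes of the mesenchymal melanoma state (median 56.7 kb), 16 had WT and 6 mutant SMARCC1, and 10 had it in the WT line only. Vim, the intermediate filament vimentin, had 5 WT peaks and 1 mutant peak of 5 fragments, and Cd44, the hyaluronan receptor, 4 and 2. Loxl2 and Thbs1 had 3 WT peaks and 0 mutant peaks each. Cdh1, the epithelial cadherin gene that is also counted in this list, had 3 and 0 as well. Of 20 TGF-beta and BMP genes, 10 had WT and 1 mutant SMARCC1. Acvr1, a BMP receptor, had 5 and 1, and the corepressor Ski, the effector Smad3 and the co-receptor Tgfbr3 had 3 and 0 each. Of 23 matrix and adhesion genes, 19 had WT and 11 mutant SMARCC1. Itgb5 had 6 and 1, Lamc1 5 and 2, and Col5a1 4 and 0. Itgb1, the beta chain of most collagen and laminin receptors, had WT peaks of 44, 7 and 22 fragments and 1 mutant peak of 8.

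Of 20 actin cytoskeleton genes, 14 had WT and 10 mutant SMARCC1, among them the lamin gene Lmna with 5 and 1 and Pdlim5 with 5 and 0. Of 20 growth factors and receptors, 14 had WT and 9 mutant SMARCC1. Pdgfc had 5 and 0, and the receptor gene Met 4 and 2. Of 17 TEAD and YAP pathway genes, 10 and 4 had it, with Tead1 at 6 and 1 and Wwtr1, which encodes TAZ, at 3 and 0. Of 17 AP-1 factor genes, 7 and 3 had it. Bach2 had 10 WT peaks of 3 to 22 fragments and 2 mutant peaks, at both of which the WT list also had a peak. Fosl1 had 1 and 1, and Junb, Fosb and Maff 1 and 0. Of 16 MAPK feedback genes, 10 and 7 had it, and the mutant line alone had Dusp6 and Spry2 with 1 peak each. Both of these peaks rested on 2 fragments and overlapped no ARID1A peak of either line.

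Of 22 pigment cell genes, 7 had WT and 4 mutant SMARCC1, near the shares of all genes for the WT line. Mitf, the master regulator of the melanocyte lineage, had WT peaks of 9, 13 and 34 fragments and mutant peaks of 3 and 17. The stronger of the mutant peaks (chr6:97952922-97953244) met the WT peak of 34 and lay above the count that depth alone would give. Trpm1 had WT peaks of 6, 4, 12 and 32 fragments and no mutant peak. Of 17 neural crest regulators 6 and 4 had it, with Ets1 at 6 and 1. Of 22 IGF signalling genes 12 and 6 had it, and Igf2bp2 had 5 and 0. Of 20 glycolysis genes 11 and 6 had it, and Slc2a3, a glucose transporter, had 3 peaks in each line. Of 26 SWI/SNF subunit genes 6 and 5 had it, with 1 in common. Bicral had 3 WT peaks, and Smarcc1 itself had 1 mutant peak of 2 fragments and no WT peak. Of 17 genes of the COMPASS and UTX complexes 6 and 1 had it, and of 20 ribosomal protein genes 6 and 1. In every list except keratinocyte and endothelial markers, which had 1 gene in each line, more genes had SMARCC1 in the WT line than in the mutant line, as in the whole genome.

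The excess of WT peaks was spread over all chromosomes. Per 100 WT peaks, the mutant list had 20.9 on chromosome 12 to 34.3 on chromosome 19 over the 19 autosomes. For ARID1A the range was 107 on chromosome 18 to 132 on chromosome 19. Chromosomes 19 and 10 were the highest for both proteins. Over the 19 autosomes Pearson's r between the 2 ratios was 0.68 and Spearman's rho 0.36, as a description of libraries from the same 2 lines. Copy number of either line was not used here.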

How the data were processed

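CUT&RUN libraries of mouse melanoma lines 971 and 493 were processed by the authors with Bowtie2 and MACS2 on build mm10 and checked with FastQC and MultiQC, per the submitters' processing notes. The duplicate handling, the use of IgG as control and all tool versions are not given in the sources used here. Every list was deposited per library and gives for every peak its position, a score (10 times the −log10 q, truncated), the fold enrichment over local background as a ratio, the −log10 p and −log10 q values, and the summit offset.

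From these lists, summit fragments n and background b were recovered from fold = (n + 1)/(b + 1) and the Poisson p of more than n fragments (tolerance 0.001 in −log10 p). Depth is the background times genome size over the shortest peak width. The absolute depth assumes the caller's default mouse genome size, and the ratio of depths does not. The ratio assumes that the shortest width is the fragment length of the caller. Positions of 21900 protein-coding genes came from the RefSeq table of GRCm38.p6, the assembly of mm10. Gene ends are both ends of the gene, and 9 WT and 11 mutant peaks on unplaced scaffolds have no distance. Promoter windows were found for 17469 genes and held none of chromosome 18. Python 3.11.15, pandas 2.3.3, NumPy 2.4.6, SciPy 1.17.1 and matplotlib 3.10.9 were used, and the steps were tested on simulated data.

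There is 1 library per line and target, hence no test across samples and no leave-one-out. Genes named are those nearest the 10 peaks of highest fold in each class, of the largest clusters, with most peaks in 1 line only, or in fixed lists. Genes outside this rule, chosen after their values were seen, are those of the printed promoters, those named for peaks in both lists (Sgms1, Elmo1 and Cav1) and those of WT-only sites without mutant ARID1A. Peaks on a local background of 5 or more fragments (14 WT, 22 mutant) were left out of fragment classes, strong and named peaks, a limit set after seeing the data. The gene lists, rules and the comparison itself were chosen with earlier results of these data known. Alternatives are given in the closing section.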

Additional observations from a re-analysis of the deposited data

How the results depend on the processing

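No paired analysis was possible because each line has 1 SMARCC1 library and no result comes from a test. The cause of each shift was not tested, unless the alternative's own construction (fewer peaks, a stricter overlap) gives it. The share of WT peaks kept, 16.9%, was 9.72% with a reciprocal overlap of 50%, 14.7% with the summit inside the other peak, 11.5% with −log10 q of at least 5 in both lists, 38.9% with equal numbers of top peaks, 22.6% after thinning to the mutant depth, and 18.7% without stretches of 100 kb that hold no peak of the other line. The share of mutant peaks shared, 67.3%, was 38.5%, 64.6%, 83.4%, 39.2%, 60.0% and 74.6% under the same 6 settings, and 79.0% without peaks of 2 fragments, a setting chosen after seeing the data. The ratio of peak numbers, 0.253, was 0.138 at −log10 q of at least 5 and 0.381 after thinning. With thinning by the ratio of backgrounds alone, 0.300, also chosen after seeing the data, the 3 values were 25.004%, 55.5% and 0.454. The median WT width, 361 bp, was 405 bp after thinning and 487 bp in the top 2910 peaks, above the 231 bp of the mutant list each time. The distal WT share, 84.9%, was 74.3% beyond 10 kb, 87.0% after thinning and 86.3% at −log10 q of at least 5. The clustered WT share, 28.2%, was 18.0% at 5 kb, 46.6% at 25 kb, 8.45% in the top 2910 peaks and 20.6% after thinning. The gap in KMT2D occupancy between shared and WT-only peaks, 18.6 points, was 15.9 with KMT2D peaks of −log10 q of at least 5, 7.83 after standardising for WT fold and 12.5 among strong peaks, positive each time. Genes met in the WT line only, 4410, were 2862 after thinning, and those met in the mutant line only, 420, were 630 and 99 after thinning and at −log10 q of at least 5. Leaving out peaks on a local background of 5 or more fragments, chromosomes X and Y or regions called in 15 or more libraries moved none of the results for which each was run. In the mutant list 49.1% of peaks rest on 3 or fewer fragments.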
